A study of Mus musculus with 6 samples.

Results

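In gastrocnemius muscle of conditional Phf2 knockout mice, 623 peaks of the repressive histone mark H3K9me2 lay on a peak of the active promoter mark H3K4me3 and on no peak of any input library. They are 623 of the 12508 H3K9me2 peaks of the knockout on chromosomes 1 to 19, and 623 of the 47128 peaks in the 6 lists of the study. A peak was taken if it shared 1 bp or more with an H3K4me3 peak and no base with a peak of the 3 inputs. They make up 6.49% of the 9596 knockout H3K9me2 peaks free of input. The peaks were thus chosen by the measured H3K9me2 of the knockout, H3K4me3 and the inputs, and their values in those libraries are given as a description. The H3K9me2 list of control muscle, the gene annotation and the promoter sequence played no part in the choice.

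The study mapped histone marks by CUT&RUN, in which an antibody-guided nuclease cuts out the DNA around marked nucleosomes, in 4-week-old male C57BL/6 mice. Knockout mice (CKO) were Phf2 flox/flox;Acta1 Cre+ and gave 1 H3K9me2 and 1 input library. Control mice (Ctrl) were Phf2 flox/flox;Acta1 Cre- and gave 1 H3K9me2, 1 H3K4me3 and 2 input libraries. Both genotypes carried the floxed alleles, and the Acta1 promoter drives Cre in muscle fibres, so that the other cells of the muscle are left with Phf2. H3K4me3 was mapped in Ctrl muscle alone, in a library titled wild type, so the overlap sets a mark of one genotype on a mark of the other. The sources used here do not say whether animals were separate or pooled, nor how the input was prepared. With 1 H3K9me2 library per genotype there is no replicate error, no test between genotypes was possible, and all intervals below cover counting error only. The peak lists hold no measure of the Phf2 deletion itself.

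H3K9me2 is written mainly by the methyltransferases G9a and GLP and is known from silent genes and heterochromatin. H3K4me3 marks the first nucleosomes of transcribed or poised genes, above all at CpG islands, stretches rich in the dinucleotide CG. PHF2 holds a PHD finger that binds H3K4me3 and a JmjC domain described as removing H3K9me2, so that promoters carrying H3K4me3 are sites where the protein is known to bind.

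The promoters of 6 genes show the range of sequence at these peaks, with each CG in capitals. They run from 250 bases before to 50 bases after the start, on the coding strand, from RefSeq's table of GRCm38.p6. Rnpc3 (chr3:113630100-113630399, minus strand) had the highest H3K9me2 fold of the 623. Mettl25 (chr10:105841331-105841630, minus strand) had the highest fold of the peaks that Ctrl muscle also had. Dhx36 (chr3:62506939-62507238, minus strand) was high for all 3 histone mark libraries. Zfp433 (chr10:81704575-81704874, plus strand) had few CGs and a very high H3K4me3 fold. Trim28 (chr7:13023902-13024201, plus strand) encodes a corepressor of the H3K9 methylation machinery, and Actc1 (chr2:114052826-114053125, minus strand) is a muscle actin gene with a TATA box.
Rnpc3: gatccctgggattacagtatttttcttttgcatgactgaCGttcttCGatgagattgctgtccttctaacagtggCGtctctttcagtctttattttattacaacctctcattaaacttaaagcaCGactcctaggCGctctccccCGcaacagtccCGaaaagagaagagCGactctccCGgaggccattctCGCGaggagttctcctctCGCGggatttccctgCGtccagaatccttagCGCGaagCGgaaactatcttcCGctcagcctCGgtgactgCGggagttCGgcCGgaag
Mettl25: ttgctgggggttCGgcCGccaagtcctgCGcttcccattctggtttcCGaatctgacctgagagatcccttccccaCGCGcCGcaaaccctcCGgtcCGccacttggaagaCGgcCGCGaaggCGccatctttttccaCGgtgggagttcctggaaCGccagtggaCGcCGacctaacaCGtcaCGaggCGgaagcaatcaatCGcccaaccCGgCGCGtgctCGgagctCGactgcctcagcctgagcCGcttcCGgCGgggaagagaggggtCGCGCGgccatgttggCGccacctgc
Dhx36: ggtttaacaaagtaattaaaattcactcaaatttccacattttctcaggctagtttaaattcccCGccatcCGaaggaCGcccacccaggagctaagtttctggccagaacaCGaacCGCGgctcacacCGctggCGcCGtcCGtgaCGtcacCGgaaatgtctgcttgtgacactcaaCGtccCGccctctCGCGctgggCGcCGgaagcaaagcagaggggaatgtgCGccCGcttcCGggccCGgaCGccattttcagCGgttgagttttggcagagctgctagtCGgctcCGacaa
Zfp433: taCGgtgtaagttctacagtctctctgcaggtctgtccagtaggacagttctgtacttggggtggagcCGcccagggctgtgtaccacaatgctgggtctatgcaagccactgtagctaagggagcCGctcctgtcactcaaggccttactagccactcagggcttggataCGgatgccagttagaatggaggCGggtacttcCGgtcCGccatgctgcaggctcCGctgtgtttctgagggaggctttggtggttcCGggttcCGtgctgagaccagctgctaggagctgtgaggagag
Trim28: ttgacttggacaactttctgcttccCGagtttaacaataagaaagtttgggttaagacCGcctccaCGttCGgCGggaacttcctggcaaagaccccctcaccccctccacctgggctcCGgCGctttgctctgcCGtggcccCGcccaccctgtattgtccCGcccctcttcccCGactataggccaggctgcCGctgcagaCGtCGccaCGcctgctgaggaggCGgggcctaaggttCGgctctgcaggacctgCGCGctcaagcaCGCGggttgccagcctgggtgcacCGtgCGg
Actc1: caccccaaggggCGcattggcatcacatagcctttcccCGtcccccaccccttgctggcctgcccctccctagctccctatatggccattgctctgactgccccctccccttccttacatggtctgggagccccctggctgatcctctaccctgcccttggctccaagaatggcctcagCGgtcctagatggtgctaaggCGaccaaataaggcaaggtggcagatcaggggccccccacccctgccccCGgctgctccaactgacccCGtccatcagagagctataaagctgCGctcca

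Of the 6, Actc1 and Zfp433 had the fewest CGs and Mettl25 the most. Rnpc3 had 22 CGs in 300 bases, Mettl25 33, Dhx36 26, Zfp433 10, Trim28 23 and Actc1 7. Per base composition, the CGs of Rnpc3 came to 1.11 of the number its C and G content would give, and those of Dhx36 to 1.09. In Zfp433 this ratio was 0.410 and in Actc1 0.259.

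Values for a peak are the authors' fold and the number of fragments at the summit, recovered from that fold and its p-value. The fold is the summit coverage over the local background of the same library, with 1 added to each before division. The local background of the 623 had a median of 0.661 fragments, so the added 1 weighs on the fold. Folds of libraries of unlike depth are thus not on the same scale. The 623 peaks had a median CKO H3K9me2 fold of 5.18 (95% interval of the median 5.18 to 5.32), with a range of 3.30 to 12.5. Their summits rested on a median of 8 fragments, with a range of 5 to 21, and 151 of the 623 rested on 5 or 6. The H3K4me3 peaks under them had a median fold of 11.05 with 84 fragments at the summit, against 10.03 with 53 for all 16066 H3K4me3 peaks. The H3K9me2 values are thus small counts, and the H3K4me3 values are large ones. The lowest background, which scales with depth, was 0.544 fragments in the CKO H3K9me2 library, against 0.391 in that of Ctrl. CKO gave 12508 H3K9me2 peaks, against 3595 in Ctrl, and the inputs also differed, with 10683 peaks in CKO against 2999 and 1277 in Ctrl. The CKO input had a lowest background of 0.371 fragments, against 0.294 and 0.292 in the Ctrl inputs, so that peak number did not follow this measure of depth across libraries. Tissue identity could be checked only on H3K4me3. Of 15 muscle fibre markers, 8 had an H3K4me3 peak within 2 kb of an end (Des, Cacna1s, Casq1, Tcap, Actn3, Ryr1, Atp2a1 and Tnnt3), and Acta1, Ckm, Ttn, Myh4, Myh1, Pvalb and Mb had none. Satellite cell markers had one at 4 of 5 genes, endothelial markers at 3 of 5, blood and immune markers at 2 of 5, and adipocyte, Schwann and liver markers at 1 gene each, while the 5 fibroadipogenic and 4 neuronal markers had none. Of these markers, Tnnt3 alone had one of the 623 peaks at an end.

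At the minor spliceosome gene Rnpc3 the H3K9me2 peak (chr3:113629752-113630163) had a fold of 12.5 and 21 fragments in CKO muscle, and Ctrl muscle had no H3K9me2 peak there. The H3K4me3 peak at Rnpc3 had a fold of 17.2. The peak at Mettl25 and its neighbour Ccdc59 (chr10:105840982-105841454) had an H3K9me2 fold of 10.8 with 21 fragments in CKO muscle, against 5.49 with 7 fragments in Ctrl muscle. Both genotypes thus had a peak at Mettl25, on an H3K4me3 peak of fold 11.6. At Tyw3, a tRNA-modifying enzyme, and Cryz, a quinone oxidoreductase (chr3:154596623-154597094), the fold was 10.3 with 18 fragments in CKO muscle and 4.31 with 5 fragments in Ctrl muscle. Both of these peaks lay near the ends of 2 genes, and 96 of the 623 were within 2 kb of the ends of at least 2 coding genes. Timm21, which acts in import into mitochondria, had a CKO fold of 10.2 with 18 fragments and no Ctrl peak, and Dtwd2 one of 9.70 with 20 fragments and no Ctrl peak.

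Next in fold came a peak in Gm33989, at 9.69 in CKO muscle, described below with the peaks away from gene ends. Zfp959 had an H3K9me2 fold of 9.46, Zfp433 9.30 and Zfp781 9.12 in CKO muscle, and none of these 3 had a Ctrl peak. Zwint, a kinetochore gene, had an H3K9me2 fold of 9.21 with 14 fragments in CKO and no Ctrl peak, on the H3K4me3 peak of highest fold among the 623 (23.6). The peak at the glutathione transferase genes Gsto1 and Gsto2 had an H3K9me2 fold of 8.96 in CKO and no Ctrl peak. By H3K4me3 fold, Zwint was followed by Zfp433 (23.6), a start inside Gm33989 (22.7), Yeats4 (22.7), 9430038I01Rik (22.4), Dhx36 (22.1), Ctso (22.1), Zfp330 (22.1), Zfp606 (22.0) and the start of the non-coding gene Dancr near Usp46 (22.0). The H3K9me2 folds of these 10 peaks in CKO ran from 4.53 at Dancr to 9.69 in Gm33989, so high H3K4me3 did not always come with high H3K9me2.

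Over all 623 peaks, the 2 folds had a Pearson correlation of 0.37 and a Spearman correlation of 0.35. Summit fragments, the counts before division by the local background, had a Spearman correlation of 0.09. The points share the genomic windows that the rule selected, and no test was made on them.

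**Figure D1:**
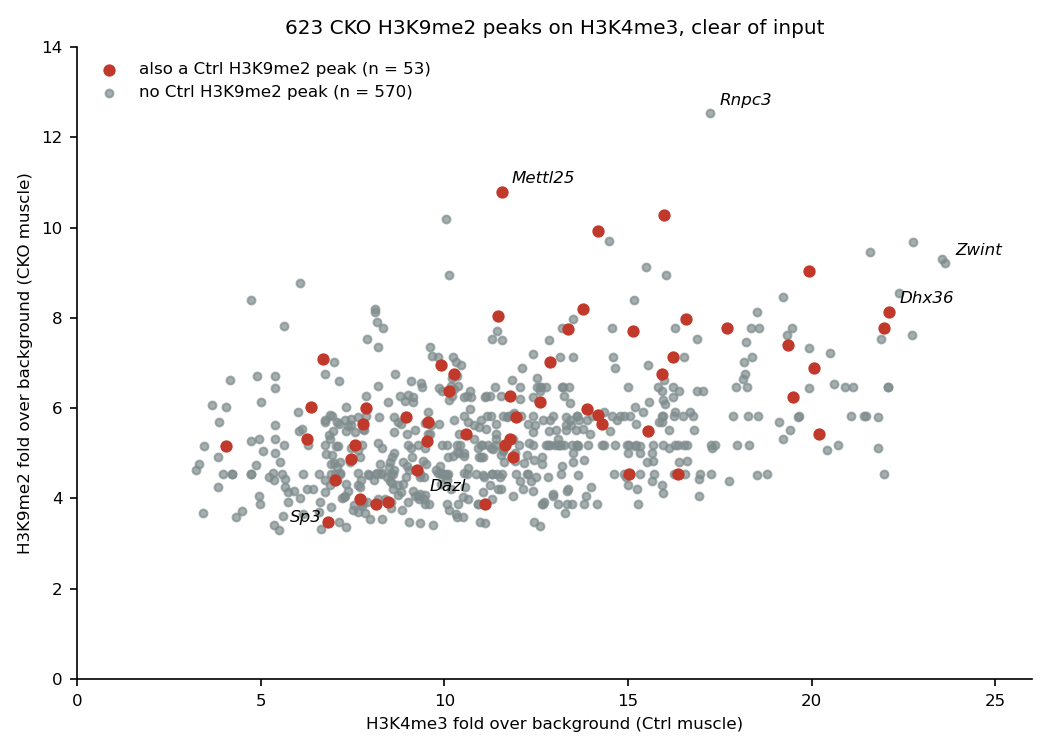
Each point is one of the 623 peaks, with its H3K4me3 fold in Ctrl muscle on the x axis and its H3K9me2 fold in CKO muscle on the y axis; red points also overlap a Ctrl H3K9me2 peak (n = 53) and grey points do not (n = 570). Red points span CKO folds from 3.48 to 10.8 (Mettl25) and H3K4me3 folds from 4.05 to 22.1 (Dhx36).

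At the edges of the rule lay the following peaks. The lowest CKO −log10 q values belonged to Sp3 (1.36), Hes7 (1.40), a peak in Zfp521 (1.44), Ncaph2 with Sco2 (1.48) and Dsp (1.52), each with 5 fragments. The shortest overlaps with H3K4me3 were 21 bp at Dazl, 43 bp near Lrrc74a, 84 bp at Hsd11b2, 143 bp at Sp3 and 150 bp in Grb10. Just outside, input-free H3K9me2 peaks missed H3K4me3 by 3 bp at Hmga1, 9 bp at Ccdc184, 133 bp at Zhx2, 228 bp at Gm3248 and 657 bp at Sfmbt2. Towards the inputs, the peaks of Hsd11b2, Rab5a, Plxna2, Prkca and Fryl stayed 1, 6, 17, 20 and 23 bp clear of an input peak. Those of Ubr3, Ewsr1, Zfp277, Camk2d and Plk2 were left out for sharing 2, 7, 7, 10 and 13 bp with one. Most peaks were far from both edges: the median gap to an input peak was 47864 bp, and 495 of 623 (79.5%) lay wholly inside their H3K4me3 peak.

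Ctrl muscle had an H3K9me2 peak at 53 of the 623 sites, or 8.51% (95% binomial interval 6.44 to 11.0). The same held for 11.0% of all CKO H3K9me2 peaks and for 7.46% of those free of input. The share at H3K4me3 was thus near that of input-free CKO peaks at large. Among input-free CKO peaks without H3K4me3 it was 7.39% (663 of 8973), and among CKO peaks with both H3K4me3 and input it was 15.7% (181 of 1155). The share went up with fold in each set. With the 623 cut in 3 classes of near equal size by CKO fold (up to 4.73, to 5.80 and above), 4.29%, 7.69% and 13.7% of the 623 had a Ctrl peak. For input-free peaks without H3K4me3 in the same classes the shares were 3.80%, 6.85% and 10.5%, and for peaks with both H3K4me3 and input they were 7.62%, 13.6% and 23.2%. In each class the interval of the 623 held the share of the input-free peaks without H3K4me3.

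**Figure D2:**
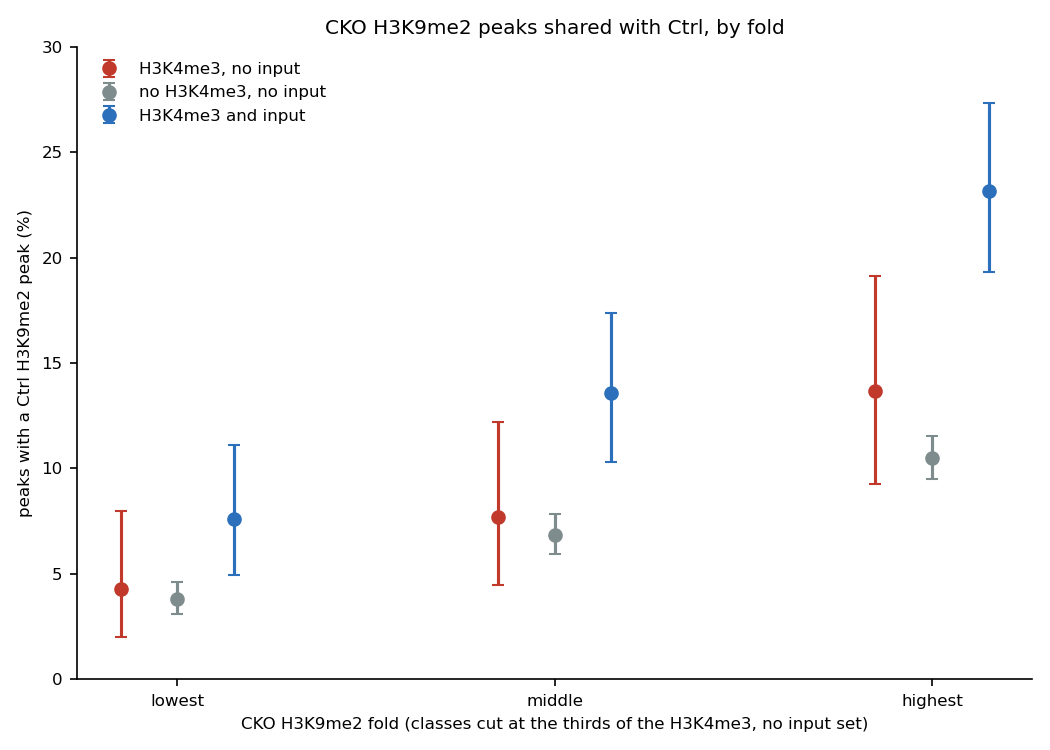
The y axis gives the percentage of CKO H3K9me2 peaks that overlap a Ctrl H3K9me2 peak, and the x axis 3 classes of CKO fold, near equal in size for the 623 peaks (red); bars are exact 95% binomial intervals. The 623 peaks climb from 4.29% to 13.7% across the classes, close to input-free peaks without H3K4me3 (grey) and below peaks with H3K4me3 and input (blue) at each class.

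Seen from H3K4me3, the numbers differ. Of all 16066 H3K4me3 peaks, 622 (3.87%) held at least one of the 623, and a peak near Zfp958 held a pair, with CKO folds of 6.17 and 4.12. A Ctrl H3K9me2 peak was present at 8.84% of those 622 (55) and at 2.97% of all H3K4me3 peaks. With H3K4me3 peaks that touch any input set aside, it was present at 8.44% (47 of 557; interval 6.27 to 11.1) of peaks holding one of the 623, against 0.850% (80 of 9408; interval 0.675 to 1.06) of the others. In turn, 50 of the 146 input-free Ctrl H3K9me2 peaks on H3K4me3 (34.2%) overlapped one of the 623. The intervals of those 8.44% and 0.850% did not meet. The groups were split by the CKO H3K9me2 peak that the rule itself used, and nearly all of the others held no such peak. The contrast thus describes only how often Ctrl peaks fell where CKO peaks did. H3K4me3 width and coverage, which differ between these sets, are given below.

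Among the 53 shared sites the CKO fold had a median of 5.98 on 10 fragments, and the Ctrl fold at the same sites a median of 4.80 on 6 fragments. CKO was the higher fold at 44 of the 53. These sites were chosen by their CKO peak, and the Ctrl library was the shallower, with a lowest background of 0.391 fragments against 0.544. A shallower library gives a lower fold at equal enrichment, and the part of depth in the CKO and Ctrl values below was not tested. Dhx36, an RNA helicase that unwinds G-quadruplexes, had an H3K9me2 fold of 8.14 with 12 fragments in CKO and 6.17 with 9 fragments in Ctrl. Zfp606 had 7.77 with 11 fragments in CKO and 6.47 with 8 fragments in Ctrl. Qdpr, the enzyme that regenerates tetrahydrobiopterin, had 7.41 in CKO and 6.32 in Ctrl. Fam172a was even, at 6.88 in CKO and 6.86 in Ctrl. At the Hippo pathway kinase gene Stk3 the fold was 8.20 in CKO and 4.91 in Ctrl. The peak at Ttyh1 and Leng8 had 7.75 in CKO and 5.25 in Ctrl, and Catspere2 had 8.05 in CKO and 4.79 in Ctrl. Ctrl was higher at 9 sites, named here after their values were seen: Dmac1 (6.26 in CKO, 7.18 in Ctrl), Chsy3 (3.92 in CKO, 6.17 in Ctrl), Siah2, Cnksr3, Fut8, Zswim9 with Lig1, Upf3a, Glyr1 and Rbm15. A Ctrl peak can rest on as few as 4 fragments, and at the other 570 sites the lower depth of the Ctrl library, the lower peak number that the Ctrl inputs show too and a lower level of the mark cannot be told apart.

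Most of the peaks lay at gene ends. By their centre, 501 of 623 (80.4%; 77.1 to 83.5) lay within 2 kb of an end of a coding gene, 83 (13.3%) in a gene body and 39 (6.26%) between genes. Input-free CKO H3K9me2 peaks without H3K4me3 were at a gene end in 3.22% of cases and intergenic in 72.9%. Since H3K4me3 itself lies at gene ends, the set to compare with is H3K4me3: 71.2% of all its peaks, and 63.9% of those with neither CKO H3K9me2 nor input, were at a gene end. CKO peaks with both H3K4me3 and input were at an end in 82.2% of cases. A Ctrl peak was found at 49 of 501 peaks at gene ends (9.78%; 7.32 to 12.7), at 2 of 83 in gene bodies (2.41%; 0.293 to 8.43) and at 2 of 39 between genes (5.13%; 0.627 to 17.3).

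Annotated starts gave a finer view for the 604 peaks on chromosomes where starts were used. A start lay within 500 bp of the summit for 411 of them (68.0%), against 1.47% of the input-free peaks without H3K4me3 and 51.7% of H3K4me3 summits with neither CKO H3K9me2 nor input. Starts of different genes on opposite strands, within 1 kb of the peak centre, were found at 99 of 604 (16.4%; 13.5 to 19.6). For H3K4me3 peaks with neither CKO H3K9me2 nor input the figure was 8.48%, and for CKO peaks with H3K4me3 and input it was 16.4%. Whether such starts pointed away from each other, as in divergent promoters, was not checked.

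Around those 411 starts, the H3K9me2 summits in CKO lay a median of 73 bp downstream (58 to 97), and 264 of 411 (64.2%) were on the transcribed side. The H3K4me3 summits of the same promoters in Ctrl lay a median of 137 bp downstream (110 to 157), and 307 of 411 (74.7%) were on that side. These promoters were selected by the distance of their H3K9me2 summit. In the sets most like them, H3K9me2 summits on H3K4me3 with input lay a median of 62.5 bp downstream (46 to 74). For H3K4me3 summits with neither CKO H3K9me2 nor input it was 109 bp (104 to 114). Those H3K4me3 summits were taken only within 500 bp of a start. The H3K4me3 summits of the 411 had no such limit. They were also measured from the start nearest to the H3K9me2 summit, so 137 and 109 bp are not like for like. Single promoters varied: the H3K9me2 summit was 223 bp downstream of the start at Rnpc3, 144 bp at Mettl25, 22 bp at Dhx36 and 32 bp upstream at Dmac1. Over all 623 peaks the H3K9me2 summit was a median of 108 bp from the nearest H3K4me3 summit (93 to 124), within 100 bp for 304, and inside the H3K4me3 peak for 611 (98.1%).

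**Figure D3:**
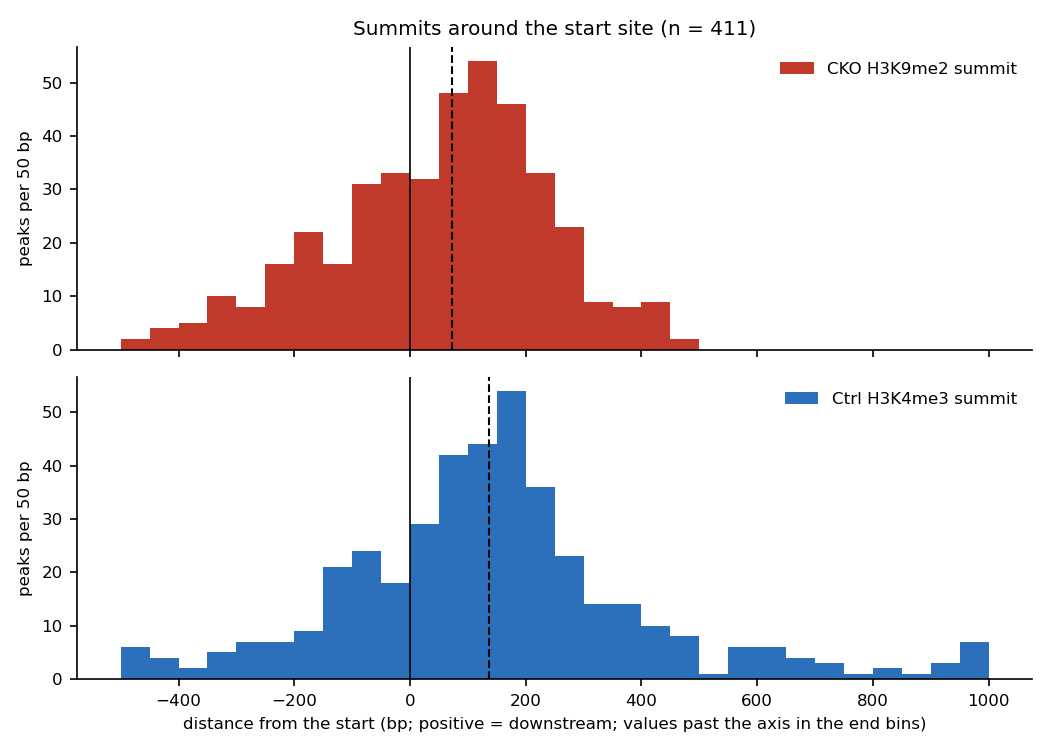
Histograms in bins of 50 bp give the distance of the CKO H3K9me2 summit (red, above) and of the Ctrl H3K4me3 summit (blue, below) from a start. Both are measured, for the same 411 peaks, from the annotated start nearest to the H3K9me2 summit. Positive values are downstream, and the dashed line is the median. The H3K9me2 summits centre at 73 bp and the H3K4me3 summits at 137 bp downstream; H3K9me2 summits are limited to 500 bp by the choice of promoters.

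Broad H3K4me3 peaks held more of the 623. In the narrowest quintile by width (315 to 500 bp), 54 of 3214 H3K4me3 peaks (1.68%) held one. The shares in the following quintiles were 2.61%, 3.39% and 4.36%, and 7.31% (235 of 3213; 6.44 to 8.27) in the widest quintile (1069 to 4204 bp). Coverage and input moved with width: the median H3K4me3 summit had 11 fragments in the narrowest quintile and 84 in the widest, and 12.5% and 55.5% of peaks touched an input peak. A wider H3K4me3 peak also offers more bases for an overlap of 1 bp or more. The part of length, coverage and input in the trend was not tested. The rule leaves out H3K9me2 peaks on input, so a share of 7.31% in the widest quintile is what stayed after that removal. From the narrowest to the widest quintile the median distance between H3K9me2 and H3K4me3 summits went from 54.5 to 246 bp, and the median CKO fold was 5.45 in the narrowest and 5.01 in the widest.

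Width also bears on the sharing with Ctrl described above. Within each quintile, input-free H3K4me3 peaks that held one of the 623 had a Ctrl H3K9me2 peak at 0 of 54, 9 of 83, 6 of 109, 15 of 137 and 17 of 174 sites, from narrow to wide. The count of 0 in 54 allows up to 6.60% by its interval. For input-free H3K4me3 peaks that held none, the shares were 0.254%, 0.564%, 1.20%, 1.43% and 1.59%. In the 4 wider quintiles the intervals did not meet, and in the narrowest they did.

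**Figure D4:**
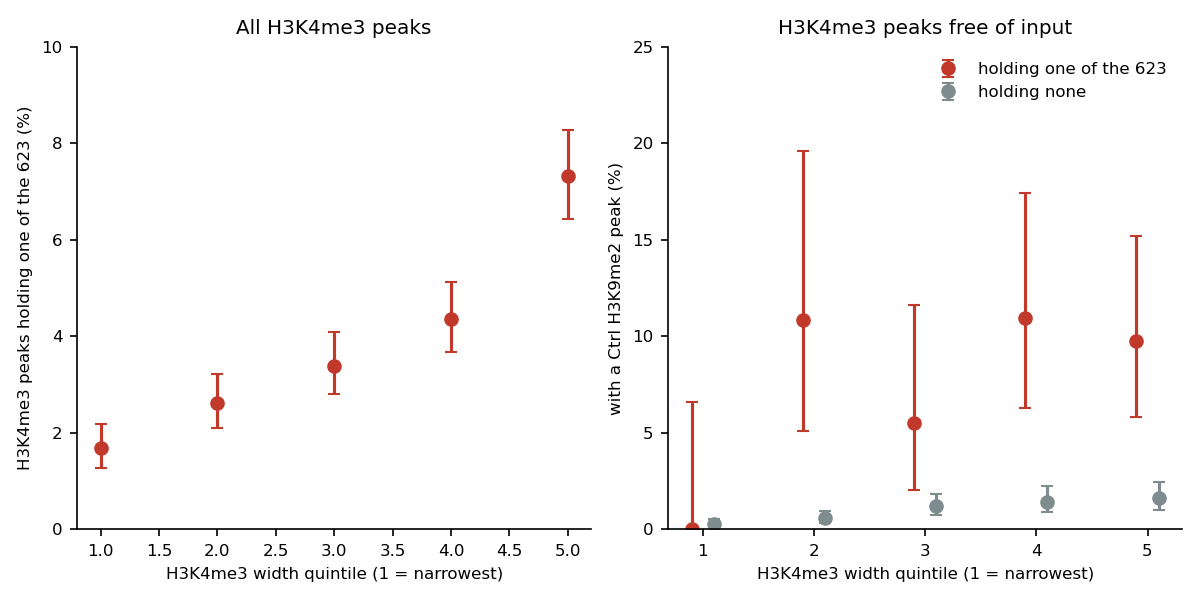
On the left, the percentage of all H3K4me3 peaks that held one of the 623 by quintile of H3K4me3 width, up from 1.68% to 7.31%. On the right, the percentage of input-free H3K4me3 peaks with a Ctrl H3K9me2 peak, for peaks holding one of the 623 (red) and peaks holding none (grey); bars are exact 95% binomial intervals, which part in quintiles 2 to 5.

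The promoters were rich in CG, as H3K4me3 promoters are. The 411 starts had a median GC content of 64.7% (63.7 to 66.0) and a median of 25 CGs in 300 bases (23 to 26), against 53.0% and 7 for all 31396 starts. Starts at H3K4me3 peaks with neither CKO H3K9me2 nor input stood between, at 60.7% and 20 CGs. Starts at CKO H3K9me2 peaks with H3K4me3 and input had 66.7% and 27 CGs. Starts at H3K4me3 peaks with input and no CKO H3K9me2 had 65.7% and 26, so the composition of the 411 was close to that of promoters called in input.

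Motifs were searched as exact letters on both strands of the same 300 bases, each on its own, so that they may overlap. The GC box GGGCGG, the core bound by Sp1-type factors, was in 326 of 411 (79.3%), against 64.9% of starts at H3K4me3 with neither H3K9me2 nor input, 77.2% at H3K4me3 with input alone and 36.0% of all starts. Dhx36, Zfp433 and Trim28 among the printed promoters hold it, and Rnpc3, Mettl25 and Actc1 do not. The CCAAT box (CCAAT) was in 42.6% of the 411, 39.0% of the H3K4me3 starts with neither and 37.3% of all starts. The ETS motif CCGGAAGT was in 37 of the 411, in 8.60% of the H3K4me3 starts with neither and 3.95% of all starts. The cyclic AMP element TGACGTCA was in 4.14%, 3.59% and 1.83% of the same 3 sets. The TATA box TATAAA was in 5.84% of the 411, with Actc1 and Myl1 among them, in 6.74% of the H3K4me3 starts with neither and in 13.6% of all starts. CAGCTG, the E-box type bound by MyoD, was in 15.3%, 15.4% and 16.3%. For the GC box, the intervals of the 411 (75.1 to 83.1) and of H3K4me3 starts with neither (63.6 to 66.3) did not meet, while that of H3K4me3 starts with input alone (75.7 to 78.7) lay inside that of the 411. For each other motif named here, the intervals of the 411 and of the H3K4me3 starts with neither overlapped. The CCAAT box was in 33.4% of H3K4me3 starts with input alone (31.8 to 35.1), and the interval of the 411 (37.7 to 47.5) lay above that. It was in 38.4% of starts at CKO H3K9me2 peaks with H3K4me3 and input, whose interval overlapped that of the 411.

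By gene, 595 of 20665 coding genes (2.88%) had one of the 623 peaks within 2 kb of an end, and 592 of the 12408 with H3K4me3 at an end (4.77%). An input peak was also present at an end of 93 of the 595, elsewhere than on the H3K9me2 peak. The counts below are to be read against 2.88%, or 4.77% for lists in which nearly all genes carry H3K4me3. A peak within 2 kb of an end of a gene can lie at the start of a neighbouring gene.

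Each muscle list below had at most 1 gene with a peak at an end, and its interval held 2.88%. Of 25 sarcomere genes, Tnnt3, the fast troponin T gene, had a peak at an end, with an H3K9me2 fold of 3.68 on 5 fragments in CKO, no Ctrl peak and an H3K4me3 fold of 3.42. Myl1, the fast light chain gene, had one at an internal start, with an H3K9me2 fold of 5.52 on 8 fragments in CKO, no Ctrl peak and an H3K4me3 fold of 13.3. Actc1, named for its printed promoter and after its value was seen, had an H3K9me2 fold of 4.16 on 8 fragments in CKO and no Ctrl peak. Of 15 myogenic regulators, Myf6, a muscle transcription factor of the MyoD family, had an H3K9me2 fold of 5.18 on 7 fragments in CKO and no Ctrl peak. Of 15 neuromuscular junction genes, Etv5, an ETS factor active at the synapse, had 5.13 on 8 fragments in CKO and no Ctrl peak. Of 22 growth signalling genes, Irs1, the insulin receptor substrate, had 4.42 on 8 fragments in CKO at its start, and a further peak of fold 5.55 inside the gene, both without a Ctrl peak. The 15 atrophy and autophagy genes, 17 oxidative metabolism genes, 12 glycolysis genes and 22 clock genes had none, and the intervals of these zeros reach up to 21.8%, 19.5%, 26.5% and 15.4%.

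Both lists of chromatin genes had 1 gene with a peak at an end. Of 31 genes of H3K9 and H3K4 methylation, Trim28 had a peak at its start, with an H3K9me2 fold of 6.20 on 9 fragments in CKO, no Ctrl peak and an H3K4me3 fold of 12.0. Of 35 Polycomb and Trithorax genes, Phf1, a Polycomb-like protein, had a fold of 5.01 in CKO within 2 kb of an end. The summit of that peak was 132 bp downstream of the start of the neighbouring gene Cuta. Jarid2, a subunit of PRC2, had a fold of 4.80 in its body, and neither peak had a Ctrl peak. Of 386 numbered Zfp genes, 20 (5.18%; 3.19 to 7.89) had one at an end, and H3K4me3 was present at an end of 317. The 4 highest by H3K9me2 fold were Zfp959, Zfp433 and Zfp781, whose values are above, and Zfp687, with 7.91 in CKO and no Ctrl peak. The 27 Zkscan and Zscan genes had none, with an interval up to 12.8%.

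Genes of RNA processing, repair, the cell cycle and translation had peaks singly. Of 46 splicing genes, 4 (8.70%; 2.42 to 20.8) had one, all with H3K4me3 at an end. Beside Rnpc3, these were Snrpd1 (H3K9me2 fold 6.38 in CKO) and Snrpd3 (5.90), which encode Sm core proteins, and Cwc22 (5.18), a factor that deposits the exon junction complex. None of the 4 had a Ctrl peak. Of 42 repair genes, 3 had one (7.14%), among them Lig1, a DNA ligase, and Ung, a uracil glycosylase. Lig1 had an H3K9me2 fold of 5.32 in CKO and 5.61 in Ctrl, and Ung 4.48 in CKO and no Ctrl peak. Of 49 cell cycle genes, the cohesin subunit gene Smc3 (6.27 in CKO), the pericentrin gene Pcnt (5.18) and the condensin subunit gene Smc4 (4.53) had one (6.12%), with no Ctrl peak. Of 39 translation initiation genes, Eif2b4 (7.13), Eif4g2 (5.48) and the cap-binding Eif4e (4.40) had one in CKO (7.69%), with no Ctrl peak. Of 51 genes of tRNA synthetases and tRNA modification, Fars2 (7.77), Trmt6 (6.62) and Qars (4.53) had one (5.88%), and of 56 genes of mitochondrial import and assembly, Timm21 (10.2), Timm10b (4.95) and Sco2 (3.39) (5.36%), again with no Ctrl peak. Mitochondrial ribosome genes had 2 of 78, Mrpl18 (5.18) and Mrpl40 (3.89), and cytosolic ribosome genes 0 of 76, with an interval up to 4.74%. For some of these genes the start nearest to the summit was that of a neighbour. It was Gucd1 for Snrpd3, Zswim9 for Lig1, Mcm8 for Trmt6, Qrich1 for Qars and Tcp1 for Mrpl18. Of 35 ubiquitin ligase genes, Cblb had a fold of 5.98 in CKO and 4.70 in Ctrl, and of 49 nuclear pore and transport genes Xpo1, an export receptor, had 5.50 in CKO and no Ctrl peak. The 38 proteasome and 13 housekeeping genes had none. The interval of each list but the numbered Zfp genes held 2.88%. That of the Zfp genes held 4.77%, the share for coding genes with H3K4me3 at an end. Of the 76 cytosolic ribosome genes, 73 had H3K4me3 at an end, and their interval stopped just below 4.77%, at 4.74%. Shares among only the genes with H3K4me3 were not computed by list.

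**Figure D5:**
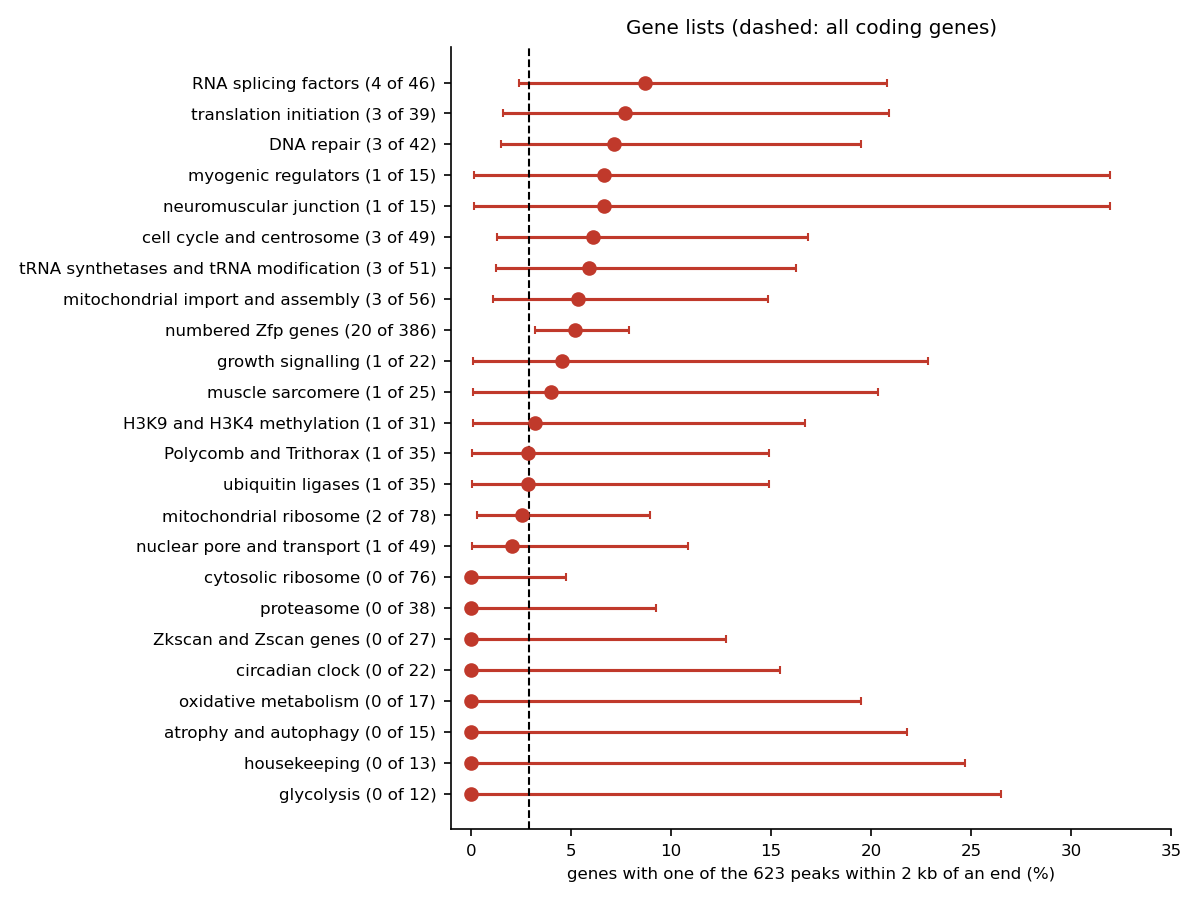
Each row is a gene list, with the number of genes that had one of the 623 peaks within 2 kb of an end over the genes in the list; the point is the percentage and the bar its exact 95% binomial interval. The dashed line is 2.88%, the share of all coding genes, which lies inside the bar of each list except the numbered Zfp genes (3.19 to 7.89). The bar of the Zfp genes holds 4.77%, the share for coding genes with H3K4me3 at an end, and that of the cytosolic ribosome genes stops just below it, at 4.74%.

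Away from ends of coding genes, 122 peaks remained, and many of these sat at starts too. A start lay within 500 bp of the summit for 44 of 116, and 32 of 122 were within 2 kb of the end of a non-coding gene, 23 of them lncRNAs. The highest H3K9me2 folds in CKO were 9.69 in Gm33989, 9.04 in Echdc1 at the start of the lncRNA Gm46218, 8.95 in Snrpn and 8.78 in the triadin gene Trdn. Then came 8.40 near Bcl6, 8.12 in Pkhd1, 8.12 in Abhd18 and 7.53 in Phip. Of these 8, the peak in Echdc1 alone had a Ctrl peak, at a fold of 4.31. The summit was 138 bp upstream of an annotated start in Gm33989, 67 bp in Abhd18 and 182 bp in Phip. The peaks in Snrpn, Trdn and Pkhd1 and near Bcl6 lay over 2 kb from any start, on H3K4me3 peaks of 16, 8, 11 and 6 fragments.

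The peaks were spread over all chromosomes, with 18 on chromosome 15 to 44 on chromosome 7. Of all H3K4me3 peaks, 3.87% held one. The highest share by chromosome was 6.88% on chromosome 16 (35 of 509; 4.84 to 9.43). The lowest was 1.95% on chromosome 11 (26 of 1332; 1.28 to 2.85). As a share of the CKO H3K9me2 peaks of each chromosome, the 2 were close, at 6.38% on chromosome 16 and 5.92% on chromosome 11. Neighbours were rare: 20 pairs lay within 100 kb of each other and no run was longer. Examples are the peaks at Nhej1 and Slc23a3 (H3K9me2 fold 7.77 in CKO) and at Cnppd1 and Retreg2 (4.06), the pair at Irs1, and Pomc (5.83) with Efr3b (4.73). Others are the peaks in Cldn10 (6.14) and at Dnajc3 (5.66), and a pair near Eif3h (6.44 and 4.96).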

How the data were processed

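Peak lists of 6 CUT&RUN libraries, 1 file per library, were used on chromosomes 1 to 19. The submitters' processing notes name Bowtie2, MACS2 and mm10. No versions, and no use of input as control, are given in the sources used here. For each peak the authors deposited its position, a score, a fold (ratio of summit pileup to background), the −log10 of p-value and q-value, and the summit's offset. The deposited score was not used. Read as a ratio with 1 added to both pileup and background, the fold gave whole fragment counts at the summit, with the help of the p-value. This held for 98.98% to 99.97% of peaks per list, with −log10 p matched within 0.1%. Depth appears as the lowest background of each list, 0.292 to 0.544 fragments.

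Overlap meant 1 bp or more, a peak was placed by its centre, and genes, starts and promoter sequences came from RefSeq tables of GRCm38.p6, the base of mm10, starts on chromosome 18 left out. Shares carry exact 95% binomial intervals (Clopper-Pearson) and medians order-statistic intervals. These take peaks as units, and peaks are not replicate animals. Overlap and fragment recovery were tested on simulated data. No test between genotypes was made. Peaks, gene lists and cell type markers were chosen with earlier results of these data known. Named were the 15 highest by CKO fold, the 10 highest by H3K4me3 fold, the 12 highest with a Ctrl peak, the peaks at each edge of the rule, the 5 first runs, up to 4 genes per list and the 8 highest outside gene ends. One named peak is not reported here. Orientation and promoter sequence were added after the files were seen. The scripts ran on scipy 1.17.1, pandas 2.3.3, numpy 2.4.6, matplotlib 3.10.9 and Python 3.11.15.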

Additional observations from a re-analysis of the deposited data

How the results depend on the processing

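Of 61 values recomputed under another setting, 46 stayed within the interval of the reported value, or within 1.5 times it for counts. With a CKO −log10 q of 5 or more, 179 peaks remained, with a Ctrl peak at 16.2%, 177 genes, a median fold of 6.62 and a median summit distance of 71 bp. With H3K4me3 peaks at or above their median fold, there were 376 peaks, 375 genes, 84.3% at gene ends, a median fold of 5.52 and a summit distance of 82.5 bp. With no removal of input peaks, there were 1778 peaks, 1691 genes and a Ctrl peak at 13.2%. Windows of 1 and 5 kb put 74.6% and 85.2% at gene ends. The stricter q and the input removal change the set itself. Without either Ctrl input in turn, the number of peaks was 659 to 730, the Ctrl share 8.90% to 9.26%, the share at gene ends 80.1% to 80.5%, the genes 627 to 703, the summit distance 112 to 115.5 bp, and the median fold stayed at 5.18. With overlap of 50% of the shorter peak, summit inside H3K4me3, input widened by 1 kb, or CKO input alone removed, the number was 615, 611, 554 and 772. No paired analysis was possible because replicate numbers exist for the 2 Ctrl inputs alone. With a median of 8 fragments per summit, depth limits every fold given for H3K9me2.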

Other observations

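Further peaks near starts were among the 83 in gene bodies. Hdac4, a histone deacetylase active in muscle, had an H3K9me2 fold of 6.76 on 13 fragments in CKO, with its summit 360 bp upstream of an annotated start. Runx1 had 5.16 on 10 fragments, 249 bp upstream of a start, Fgf12 4.56 on 8 fragments, 305 bp upstream, and the DNA methyltransferase gene Dnmt3a 3.65 on 5 fragments, 321 bp upstream. They were chosen after their values were seen.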
